A study of Mus musculus with 8 samples.

Results

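The 10 genes described here mark inhibitory interneurons of the forebrain: Gad1, Gad2, Pvalb, Sst, Vip, Npy, Cck, Lhx6, Nr2f2 and Reln. They were taken by gene symbol, and all 10 were found among the 54532 genes of the deposited tables. RNA had been sequenced from mouse brains in 8 libraries, 2 for each of 4 groups. CAA stress and CAA mock were brains of mice with CAA, cerebral amyloid angiopathy, a disease of amyloid deposits in the vessel walls of the brain, after chronic restraint stress or a mock treatment. WT stress and WT mock were wild-type brains after the same treatments. The design text says that mice were perfused with PBS and that RNA came from only part of the brain tissue. No strain, allele, sex, age, length of restraint or brain region is given in the sources used here. A library is called by its group and its number in the title. No label ties the libraries to different animals. Replicates of CAA stress and of WT mock differed in Xist and Y-linked counts, given below, so they were not repeats of 1 animal. For CAA mock and WT stress the spread between replicates may be technical. Each p-value speaks only of how these samples spread.

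Interneurons make the inhibitory transmitter GABA and act mostly on neurons close to them. Most cortical interneurons are born in the ganglionic eminences of the embryonic brain. Cells of the medial eminence depend on the transcription factor Lhx6 and largely become parvalbumin or somatostatin cells. Cells of the caudal eminence often carry Nr2f2, also called COUP-TFII, and largely become VIP, CCK or reelin cells. None of the 10 genes is specific to interneurons in a whole brain. GABA is also made by striatal, hypothalamic, thalamic reticular and olfactory bulb neurons, Cck is abundant in excitatory cortical neurons, and Nr2f2 is also active in venous endothelium, hypothalamus and amygdala.

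The libraries held 17275201 to 18894657 counts. All 10 genes passed the filter on low counts that left 17182 genes, and 99.9% of counts fell on the genes that passed. Region markers differed between the replicates of a group, in all 4 groups. The summed level of 11 striatal markers was 206 CPM (counts scaled to library size by TMM) in CAA mock 2 and 237 CPM in WT mock 1, against 841 to 1628 CPM in the other 6 libraries. These 2 libraries are called the low-striatum pair. Choroid plexus markers summed to 441 and 30.8 CPM in CAA stress 1 and 2 and to 25.6 and 544 CPM in WT stress 1 and 2. Xist had 3340 counts in CAA stress 1 and 4575 in WT mock 1, with 0 counts of 4 Y-linked genes in both, against 0 to 24 Xist counts elsewhere. The other 6 libraries are called male. Slc17a7, the vesicular glutamate transporter of cortical neurons, lay at 682 to 1667 CPM, so the neuronal RNA that the brain label implies was present in every library.

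Per length of gene, the peptide genes were the most abundant of the set. Mean FPKM (fragments per kilobase of gene, scaled to library size, the authors' values) over the 8 libraries was 162 ± 25.3 for Cck and 153 ± 37.1 for Sst (SD, n = 8 here and in the next 3 sentences). Pvalb followed at 66.2 ± 30.3, Npy at 48.0 ± 18.7, Gad1 at 46.8 ± 11.4 and Gad2 at 43.3 ± 9.32 FPKM. Vip lay at 14.2 ± 2.75 and Lhx6 at 3.69 ± 0.999 FPKM. The lowest pair was Reln at 2.08 ± 0.498 and Nr2f2 at 1.98 ± 0.894 FPKM. Several neighbours in this order changed places between libraries: Cck lay above Sst in 6 of 8, Pvalb above Npy in 6, Npy above Gad1 in 4, Gad1 above Gad2 in 7 and Reln above Nr2f2 in 5. The steps between Sst and Pvalb, Gad2 and Vip, Vip and Lhx6, and Lhx6 and Reln held in all 8 libraries. The genes also differed in how far they varied. The highest library exceeded the lowest 3.76-fold for Npy, 3.73-fold for Nr2f2 and 3.25-fold for Pvalb in CPM, but 1.59-fold for Cck and 1.75-fold for Vip.

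**Figure D1:**
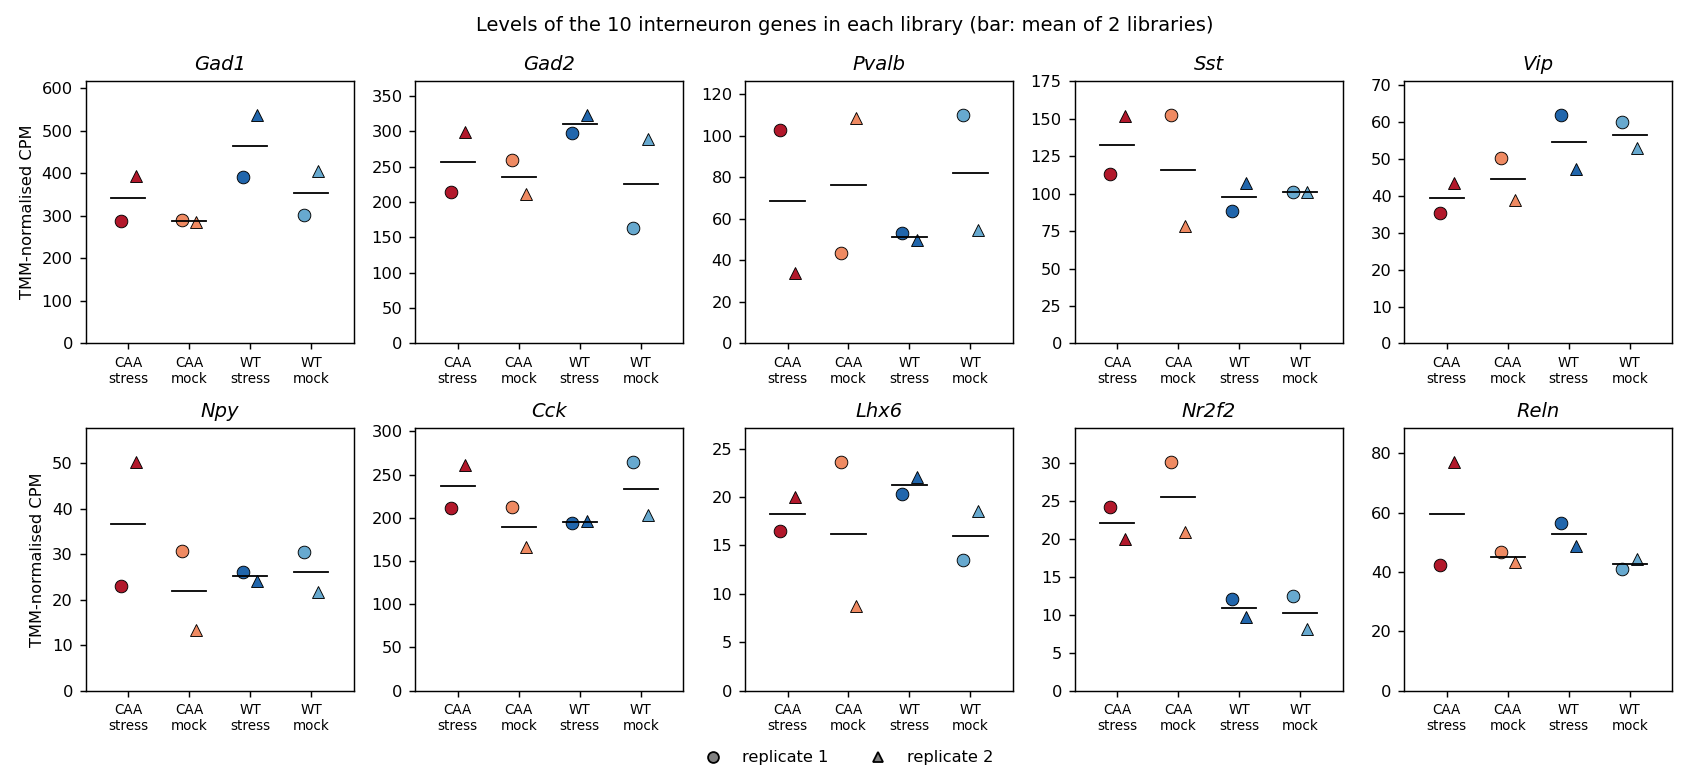
TMM-normalised CPM (y axis, from 0) of each of the 10 genes in the 8 libraries, by group (x axis), with circles for replicate 1, triangles for replicate 2 and a bar for the mean of 2 libraries. Nr2f2 is the gene whose 4 CAA libraries (20.04 to 30.1 CPM) all lie above its 4 WT libraries (8.08 to 12.5 CPM). Pvalb differs 3.04-fold between replicates of CAA stress, 2.48-fold in CAA mock and 2.01-fold in WT mock, but 1.07-fold in WT stress.

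Nr2f2 was the member that differed most between CAA and WT brains. It encodes a nuclear receptor that acts as a transcription factor. Its level was 24.3 and 20.04 CPM in CAA stress 1 and 2 and 30.1 and 20.9 CPM in CAA mock 1 and 2, against 12.2 and 9.76 CPM in WT stress 1 and 2 and 12.5 and 8.08 CPM in WT mock 1 and 2. Every CAA value exceeded every WT value, a pattern shown in this direction by 2% of the 17182 genes. Averaged over mock and stress the gene was 2.24-fold higher in CAA, at 23.8 ± 4.58 CPM in CAA and 10.6 ± 2.08 CPM in WT (SD, n = 4 each). The log2 fold change was 1.16 ± 0.19 (SE), which did not pass in edgeR's quasi-likelihood test adjusted over all genes (adjusted p = 0.206). DESeq2 called it (adjusted p = 3.05e-05). In a bulk sample, a change in the number of cells of a type and a change in RNA per cell cannot be told apart.

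The genotype difference of Nr2f2 was above 0 under both treatments. Under mock the log2 fold change was 1.31 ± 0.26 (SE, 2 libraries against 2; edgeR adjusted p = 0.824, DESeq2 adjusted p = 0.0103). Under stress it was 1.02 ± 0.26 (edgeR adjusted p = 0.579, DESeq2 adjusted p = 0.137). The interaction, the value under stress minus that under mock, was -0.29 ± 0.37 (edgeR adjusted p = 0.995). The stress difference of the gene was -0.20 ± 0.26 in CAA (edgeR adjusted p = 0.849) and 0.09 ± 0.27 in WT (edgeR adjusted p = 0.9999).

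Nr2f2 (ENSMUSG00000030551) lies on the minus strand of chromosome 7 from 70351944 to 70366735 in the mm10 build. The non-coding gene B130024G19Rik overlaps it by 1826 bases on the opposite strand. No strand setting is given in the sources used here, and without one reads of the shared stretch cannot be told apart. That neighbour had 2 and 15 counts in CAA stress 1 and 2, 9 and 1 in CAA mock, 6 and 3 in WT stress and 2 and 2 in WT mock, while Nr2f2 had 371 to 516 counts per CAA library and 144 to 232 per WT library.

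Markers of other cells and tissues, among them some that use Nr2f2, were read beside it. The summed level of 12 hypothalamic markers was 9.24 to 159 CPM in CAA libraries and 3.28 to 58.8 CPM in WT libraries, with Oxt, Hcrt, Ghrh or Sim1 at 0 in 1 or 2 libraries each. It was 134 and 159 CPM in CAA stress 1 and 2, 116 CPM in CAA mock 1 and 9.24 CPM in CAA mock 2. Nr2f2 stood at 20.9 CPM in CAA mock 2. Thalamic markers summed to 110 to 389 CPM in CAA, highest in CAA mock 2, and to 105 to 226 CPM in WT. All 9 thalamic markers were higher in CAA. No amygdala markers were read. All 11 hypothalamic markers tested were higher in CAA. Otp, a homeobox factor of hypothalamic neurons, had 6.05, 5.30, 5.26 and 2.82 CPM in the CAA libraries in the order above and 1.37, 1.49, 0.269 and 1.07 CPM in the WT libraries. The genotypes did not overlap for Otp, as in 2% of all genes in that direction. Its log2 fold change was 2.29 ± 0.38 (SE, edgeR adjusted p = 0.206, DESeq2 adjusted p = 2.2e-05). Endothelial markers summed to 148 to 227 CPM in CAA and 193 to 247 CPM in WT, and 8 of 10 were lower in CAA. Fibroblast and meningeal markers summed to 66.0 to 119 CPM in CAA and 55.4 to 71.2 CPM in WT, with 7 of 8 higher. The part of these markers in the Nr2f2 difference was not tested. Without the low-striatum pair, the libraries lowest in hypothalamic markers, the difference was 1.46 on the log2 scale. The libraries left had hypothalamic sums of 134, 159 and 116 CPM in CAA and 44.7, 43.5 and 58.8 CPM in WT. That fit therefore did not even out these markers. In the male libraries the Nr2f2 difference was 1.27. Both sets of libraries were chosen after the data were seen.

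**Figure D2:**
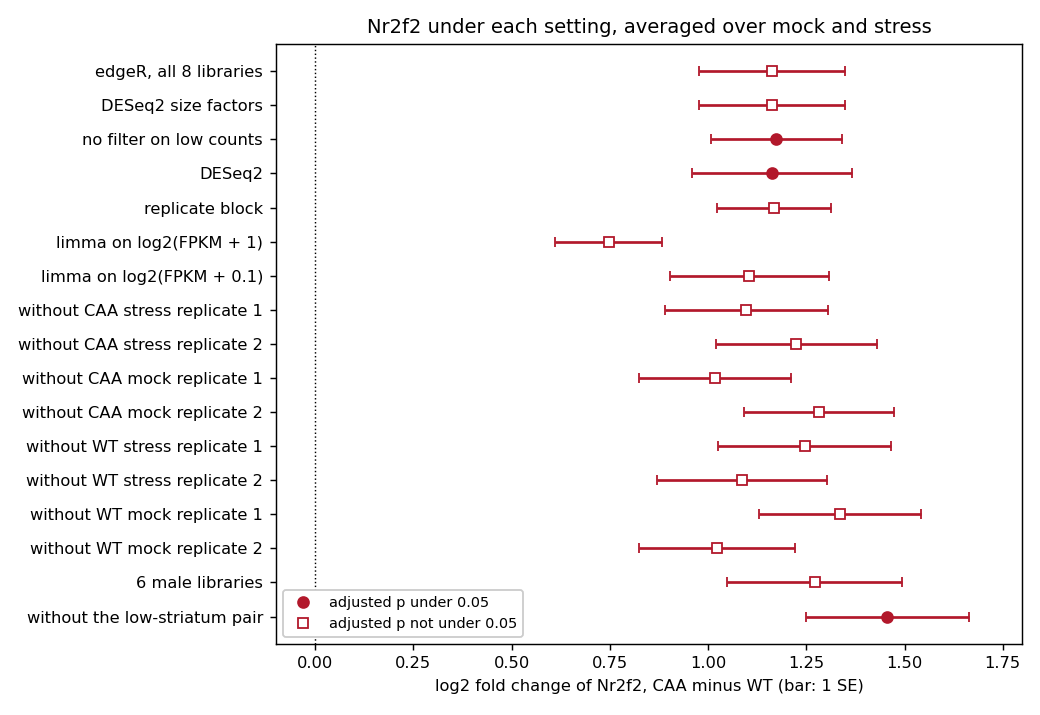
Log2 fold change of Nr2f2, CAA minus WT averaged over mock and stress (x axis), with 1 SE, under each test, scaling or set of libraries (rows). Filled circles have an adjusted p under 0.05 and open squares do not; every value lies between 0.75 and 1.46, and 3 of the 17 rows pass.

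The genes whose levels ran closest to Nr2f2 over the 8 libraries were found by the root mean square difference of centred log2 CPM, among 11029 genes with at least 5 CPM. They were Slc29a4, a plasma membrane monoamine transporter (0.20), Nxph4, a neurexophilin (0.33), and Rps4l, a ribosomal protein gene (0.33), where Nr2f2 itself had a root mean square of 0.63 around its mean. Slc29a4 stood at 19.2 and 20.6 CPM in CAA stress and 23.5 and 16.4 CPM in CAA mock, against 11.7 and 11.1 CPM in WT stress and 11.5 and 8.81 CPM in WT mock. The genotypes did not overlap for Slc29a4, but it was picked for its likeness to Nr2f2, so this is not a separate observation. Reads of Rps4l may be shared with its close relative Rps4x.

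No other member separated the genotypes, and none passed the test. In the averaged CAA comparison 0 of 10 members had an edgeR adjusted p under 0.05, beside 0.0116% of all genes tested. DESeq2 called 1 of 10, Nr2f2, beside 0.332% of the genes to which it gave an adjusted p. At an unadjusted p under 0.05 edgeR had 3 of 10 members, beside 8.38% of all genes: Nr2f2 higher, beside 4.25% of all genes, and Gad1 and Vip lower, beside 4.12%. Of the 10 log2 fold changes 5 were above 0, with a median of 0.06, and over all 17182 genes 50.2% were above 0, with a median of 0.0011.

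GABA itself is made from glutamate by the decarboxylases GAD67, encoded by Gad1, and GAD65, encoded by Gad2. Gad1 (ENSMUSG00000070880, chromosome 2, 70553072 to 70602014, plus strand) had 288 and 393 CPM in CAA stress and 289 and 285 CPM in CAA mock, against 392 and 536 CPM in WT stress and 301 and 404 CPM in WT mock. CAA stress 1 and both CAA mock libraries lay below every WT library, and CAA stress 2 lay among the WT values. Its log2 fold change was -0.37 ± 0.15 (SE; 314 ± 53.1 CPM in CAA and 408 ± 96.8 CPM in WT, SD, n = 4 each; edgeR adjusted p = 0.586). The antisense gene Gad1os, which overlaps it, had at most 13 counts in any library. Gad1 was lowest in CAA stress 1, both CAA mock libraries and WT mock 1. In these, the 8 olfactory bulb markers summed to 13.3 to 18.9 CPM, against 61.9 to 87.9 CPM elsewhere. The part of olfactory bulb tissue in the Gad1 level was not tested.

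Gad2 (ENSMUSG00000026787, chromosome 2, 22622205 to 22693874, plus strand) was low in the same libraries as Gad1, those low in bulb markers. Unlike Gad1, it was lowest in a WT library. It had 214 and 299 CPM in CAA stress and 259 and 212 CPM in CAA mock, against 297 and 323 CPM in WT stress and 163 and 289 CPM in WT mock. Its lowest levels were in CAA mock 2 and WT mock 1, the low-striatum pair. CAA stress 1, where striatal markers summed to 1406 CPM, lay at 214 CPM, close to CAA mock 2 at 212 CPM. The log2 fold change of Gad2 was -0.11 ± 0.18 (SE, edgeR adjusted p = 0.890). The part of striatal or olfactory bulb tissue in the level of Gad2 was not tested. Of 6 other genes of GABA packaging, uptake and breakdown, 6 were higher in CAA with a median of 0.12, and 0 passed in edgeR. The smallest p belonged to Slc6a11, the GABA transporter of astrocytes (0.50 ± 0.32, SE, edgeR adjusted p = 0.692).

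Parvalbumin is a calcium buffer of fast-spiking interneurons, and its gene Pvalb (ENSMUSG00000005716, chromosome 15, 78191114 to 78206400, minus strand) split the libraries across the groups. The level was 103 CPM in CAA stress 1, 109 CPM in CAA mock 2 and 110 CPM in WT mock 1, against 33.9 CPM in CAA stress 2, 43.7 CPM in CAA mock 1, 53.4 and 49.7 CPM in WT stress and 54.8 CPM in WT mock 2. Replicates of CAA stress differed 3.04-fold, those of CAA mock 2.48-fold and those of WT mock 2.01-fold, while WT stress replicates differed 1.07-fold. The genotype difference of 0.15 ± 0.51 on the log2 scale (SE; edgeR adjusted p = 0.951) was well within that spread.

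The 3 libraries high in Pvalb also had the highest brainstem and cerebellar marker sums. Brainstem markers summed to 10.8 CPM in CAA stress 1, 20.8 CPM in CAA mock 2 and 3.60 CPM in WT mock 1, and to 0.661 to 2.79 CPM in the other 5. In each library 4 to 6 of the 8 brainstem markers were at 0. Cerebellar markers summed to 60.8, 57.2 and 41.8 CPM in the same 3 libraries and to 25.3 to 41.6 CPM in the other 5, with 0 to 4 of 9 markers at 0. Pcp2, the Purkinje cell marker of cerebellum, was at 0 in 6 of the 8 libraries and reached 0.161 CPM at most. Thalamic markers summed to 362, 389 and 211 CPM in these 3 libraries and to 105 to 226 CPM elsewhere. The genes closest to Pvalb over the libraries were Vamp1, a synaptic vesicle protein gene (root mean square difference 0.22), Mcf2 (0.23) and Mxra7 (0.23). Vamp1 stood at 213, 323 and 266 CPM in the 3 libraries high in Pvalb and at 112 to 130 CPM in the others.

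**Figure D3:**
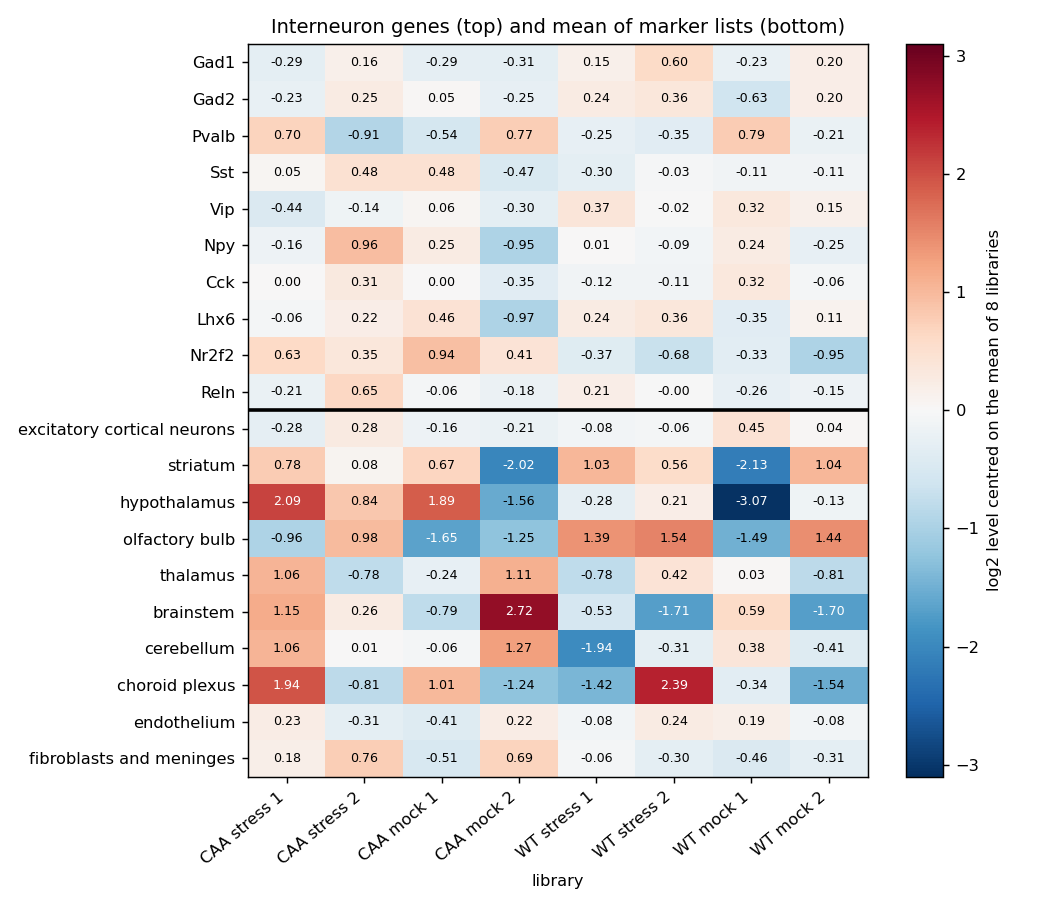
Log2 level of the 10 genes (top rows) and mean log2 level of 10 marker lists (bottom rows) in each library (columns), each gene centred on its mean over the 8 libraries, with the value printed in each cell. Nr2f2 is above 0 in the 4 CAA columns and below 0 in the 4 WT columns, while Pvalb is above 0 only in CAA stress 1, CAA mock 2 and WT mock 1.

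Somatostatin, encoded by Sst (ENSMUSG00000004366, chromosome 16, 23889573 to 23890958, minus strand), is the peptide of dendrite-targeting interneurons. It had 113 and 152 CPM in CAA stress and 152 and 78.6 CPM in CAA mock, against 88.6 and 107 CPM in WT stress and 101 and 101 CPM in WT mock. Both CAA stress libraries and CAA mock 1 exceeded the WT range, and CAA mock 2 lay below it. The log2 fold change was 0.31 ± 0.20 (SE; edgeR adjusted p = 0.673) over all libraries and 0.51 with the low-striatum pair left out (edgeR adjusted p = 0.557).

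Lhx6 (ENSMUSG00000026890, chromosome 2, 36081953 to 36105408, minus strand), the factor of medial eminence cells, had 16.5 and 19.98 CPM in CAA stress and 23.6 and 8.79 CPM in CAA mock, against 20.4 and 22.0 CPM in WT stress and 13.4 and 18.5 CPM in WT mock. As with Sst, CAA mock 2 held the lowest level, and the CAA mock replicates differed 2.69-fold. The log2 fold change was -0.10 ± 0.28 (SE; edgeR adjusted p = 0.936), and its sign turned without the low-striatum pair (0.065). Of 15 other genes of medial eminence interneurons 9 were higher in CAA, with a median of 0.08, and 0 passed in edgeR. Nos1, the neuronal nitric oxide synthase, lay at 63.0 ± 7.57 CPM in CAA and 43.9 ± 3.31 CPM in WT (SD, n = 4 each; log2 fold change 0.52 ± 0.12, SE, edgeR adjusted p = 0.508, DESeq2 adjusted p = 0.0670). Sox6, which acts downstream of Lhx6, had 0.26 ± 0.12 (SE, edgeR adjusted p = 0.597).

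Vip (ENSMUSG00000019772, chromosome 10, 5639218 to 5647617, plus strand) encodes vasoactive intestinal peptide, the marker of interneurons that inhibit other interneurons. It had 35.3 and 43.5 CPM in CAA stress and 50.2 and 38.9 CPM in CAA mock, against 61.9 and 47.4 CPM in WT stress and 60.0 and 53.0 CPM in WT mock. Within each treatment both CAA libraries lay below both WT libraries, but CAA mock 1 lay above WT stress 2. Over both treatments Vip averaged 42.0 ± 6.40 CPM in CAA and 55.6 ± 6.63 CPM in WT (SD, n = 4 each), a log2 fold change of -0.41 ± 0.14 (SE; edgeR adjusted p = 0.544). It stayed below 0 under every alternative, from -0.50 to -0.28. The gene nearest to Vip in pattern was Npy1r, a receptor for neuropeptide Y (root mean square difference 0.084), followed by Zfp141 and Dcaf6.

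Of 15 other genes of caudal eminence interneurons 8 were higher in CAA, with a median of 0.06, and 0 passed in edgeR. Lamp5, a membrane protein of neurogliaform cells, had 116 and 100 CPM in CAA stress and 80.3 and 66.3 CPM in CAA mock, against 179 and 105 CPM in WT stress and 177 and 153 CPM in WT mock. Its log2 fold change was -0.78 ± 0.16 (SE, edgeR adjusted p = 0.450, DESeq2 adjusted p = 0.0046), and CAA stress 1 overlapped WT stress 2. Sncg, the gamma-synuclein gene, lay at 7.11 ± 3.40 CPM in CAA and 3.41 ± 1.16 CPM in WT (SD, n = 4 each; 1.06 ± 0.40, SE, edgeR adjusted p = 0.586).

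Neuropeptide Y, from Npy (ENSMUSG00000029819, chromosome 6, 49822710 to 49829507, plus strand), is made by neurogliaform and many somatostatin cells. Its RNA stood at 23.1 and 50.2 CPM in CAA stress and 30.6 and 13.3 CPM in CAA mock, against 26.1 and 24.2 CPM in WT stress and 30.6 and 21.7 CPM in WT mock. Both extremes were CAA libraries, and the difference of 0.15 ± 0.33 (SE; edgeR adjusted p = 0.922) turned sign without CAA stress 2 (-0.19) or CAA mock 1 (-0.21). CAA stress 2 also had the smallest share of mitochondrial counts, 6.10%, against 7.89% to 9.99% in the other libraries; its part in these levels was not tested.

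Cholecystokinin is encoded by Cck (ENSMUSG00000032532, chromosome 9, 121489824 to 121495694, minus strand). It had 211 and 261 CPM in CAA stress and 212 and 166 CPM in CAA mock, against 194 and 196 CPM in WT stress and 264 and 203 CPM in WT mock. The genotype difference was -0.015 ± 0.13 on the log2 scale (SE; edgeR adjusted p = 0.985). Its 2 highest libraries, CAA stress 2 and WT mock 1, were also the highest in 10 excitatory cortical markers, which summed to 6513 and 6986 CPM there and to 4530 to 6174 CPM elsewhere. CAA mock 2 was the lowest in both. The part of excitatory neurons in the Cck level was not tested.

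For the remaining members the 3 genes closest in pattern over the 8 libraries were Akap17b, Trmt9b and Purg for Gad1, and Csmd3, Scn3a and Egln3 for Gad2. They were Zfp324, Hnrnpa0 and Basp1 for Sst, and Lzts1, Dpf1 and Dbpht2 for Lhx6. Npy ran closest to Vgf, a neuronal secretory protein gene, Pcdh1 and Slc17a7. Cck ran closest to Tmem151b, Edrf1 and Clstn1, and Reln to Fbxl20, Sorcs3 and Syn2.

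Of 12 receptors for these peptides 5 were higher in CAA, with a median of -0.19, and 0 passed in edgeR. Npy1r lay at 13.8 ± 1.89 CPM in CAA and 18.4 ± 2.24 CPM in WT (SD, n = 4 each; -0.42 ± 0.15, SE, edgeR adjusted p = 0.553), with no overlap between the genotypes, as in 2.76% of all genes in that direction. Vipr1, a receptor for vasoactive intestinal peptide, had -0.41 ± 0.17 (SE, edgeR adjusted p = 0.586).

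Reelin, the secreted glycoprotein of Cajal-Retzius cells and of some interneurons, is encoded by Reln (ENSMUSG00000042453, chromosome 5, 21884454 to 22344702, minus strand). Its level was 42.2 and 77.0 CPM in CAA stress and 46.8 and 43.2 CPM in CAA mock, against 56.7 and 48.8 CPM in WT stress and 41.0 and 44.2 CPM in WT mock. CAA stress 2 stood apart from the other CAA libraries, and the genotype difference was 0.13 ± 0.17 (SE; edgeR adjusted p = 0.848), or -0.12 without that library. Of 6 reelin receptors and adaptors 2 were higher in CAA, with a median of -0.15, and 0 passed in edgeR. Vldlr, a receptor for reelin, had -0.24 ± 0.11 (SE, edgeR adjusted p = 0.593) with no overlap between the genotypes, as in 2.76% of all genes in that direction. Crk, an adaptor protein of the pathway, had -0.15 ± 0.10 (SE, edgeR adjusted p = 0.692).

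**Figure D4:**
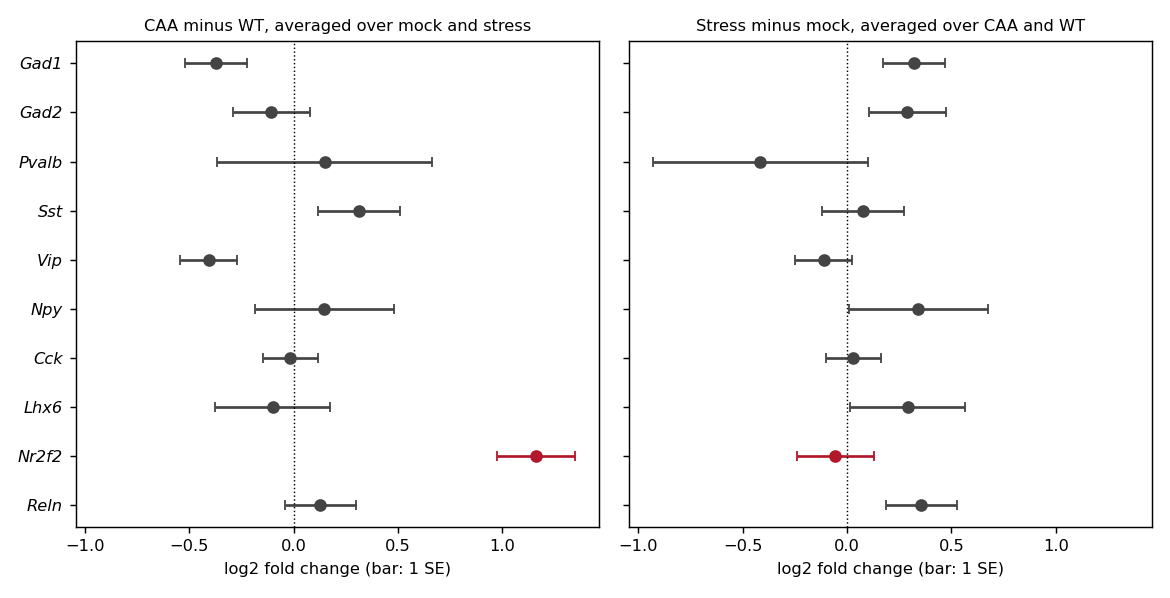
Log2 fold changes with 1 SE (x axes) of the 10 genes (rows) for CAA minus WT averaged over treatments (left) and stress minus mock averaged over genotypes (right). Nr2f2 stands apart on the left at 1.16, and on the right the values run from -0.42 for Pvalb to 0.36 for Reln.

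Restraint stress, averaged over genotype, was not followed by a called change in any member. In edgeR 0 of 10 members had an adjusted p under 0.05, beside 0% of all genes, and 0 of 10 had an unadjusted p under 0.05, beside 3.82%. DESeq2 also called 0 of 10, beside 0.0175%. Of the members 7 of 10 were higher in stress, with a median log2 fold change of 0.18, against 50.6% and 0.0034 over all genes. For 0 of 10 members did the 4 stress libraries all lie above the 4 mock libraries or all below them, beside 0.96% and 0.867% of all genes. The largest differences above 0 were 0.36 ± 0.17 for Reln, 0.34 ± 0.33 for Npy, 0.32 ± 0.15 for Gad1, 0.29 ± 0.28 for Lhx6 and 0.29 ± 0.18 for Gad2 (SE; edgeR adjusted p = 0.920 for each). Gad1 averaged 402 ± 102 CPM in stress and 320 ± 56.8 CPM in mock libraries, and Reln 56.2 ± 15.1 CPM in stress and 43.8 ± 2.40 CPM in mock libraries (SD, n = 4 each). The highest Reln value was CAA stress 2, and without it the difference was 0.11.

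Both libraries of the low-striatum pair were mock libraries, and striatal markers were higher in stress for 11 of 11, with a median of 0.65. Without that pair the stress difference was 0.040 for Gad2 and -0.091 for Lhx6. It was 0.28 for Pvalb, against -0.42 ± 0.51 over all libraries (SE; edgeR adjusted p = 0.930), and -0.13 for Sst, against 0.08 ± 0.20 (SE; edgeR adjusted p = 0.963). Vip had -0.11 ± 0.14 (edgeR adjusted p = 0.930), Nr2f2 -0.06 ± 0.19 (edgeR adjusted p = 0.971) and Cck 0.03 ± 0.13 (edgeR adjusted p = 0.979).

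Among the other interneuron genes, 0 of each list passed for stress in edgeR. Higher in stress were 2 of 6 genes of GABA packaging, uptake and breakdown (median -0.14), 4 of 15 medial eminence genes (median -0.05), 11 of 15 caudal eminence genes (median 0.15), 8 of 12 peptide receptors (median 0.09) and 3 of 6 reelin receptors and adaptors (median -0.03). Tac2, a tachykinin gene, lay at 8.73 ± 2.23 CPM in stress and 5.20 ± 1.04 CPM in mock libraries (SD, n = 4 each; 0.75 ± 0.23, SE, edgeR adjusted p = 0.920), with no overlap between the 2 sets, as in 0.96% of all genes in that direction. Nr2f1, the close relative of Nr2f2, had -0.29 ± 0.14. Satb1, a factor of medial eminence cells, had -0.50 ± 0.23, or -0.03 without the low-striatum pair, and Sox6 -0.23 ± 0.12. Sstr5, a somatostatin receptor, had 1.53 ± 0.67 at means of 0.894 CPM in stress and 0.342 CPM in mock libraries, and Vipr2, another receptor for vasoactive intestinal peptide, had 1.13 ± 0.50. Aldh5a1, which ends GABA breakdown, had -0.19 ± 0.12, Slc6a13, a GABA transporter of meninges and liver, had 0.43 ± 0.30, Lrp8, a reelin receptor, had 0.12 ± 0.12 and Vldlr had 0.08 ± 0.11 (SE; edgeR adjusted p from 0.920 to 0.933 for these genes).

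The single-group comparisons gave 0 of 10 members with an edgeR adjusted p under 0.05 in each of the 4, beside 0.0116% of all genes for CAA under mock and under stress and 0% for stress in WT and in CAA. DESeq2 called Nr2f2 for CAA under mock, beside 0.0946%, and 0 members for CAA under stress (0.074%), stress in WT (0%) and stress in CAA (0.0902%). At an unadjusted p under 0.05 edgeR had 1 member for CAA under mock (4% of all genes), 2 for CAA under stress (8.22%) and 0 for stress in WT (1.59%) and in CAA (6.94%). Replicate pairs did not overlap between CAA and WT under mock for Nr2f2, higher (16.2% of all genes), and for Gad1 and Vip, lower (16.7%). Under stress they did not overlap for Nr2f2, Sst and Cck, higher (19.5%), and for Vip and Lhx6, lower (20.4%). Between stress and mock in WT they did not overlap for Gad2, Reln and Lhx6, higher (13.2%), and for Cck and Pvalb, lower (13.5%). In CAA all 10 members overlapped between stress and mock, where 18.3% of all genes were higher and 19% lower with no overlap. Comparisons within a genotype or treatment share libraries with each other, so their values are not independent.

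Under mock, Vip had a log2 fold change of -0.34 ± 0.20 for CAA (edgeR adjusted p = 0.998) and Cck had -0.31 ± 0.19 (edgeR adjusted p = 0.998). Under stress, Vip had -0.47 ± 0.20 (edgeR adjusted p = 0.579) and Gad1 -0.45 ± 0.21 (edgeR adjusted p = 0.603). For stress in WT brains Gad1 had 0.40 ± 0.21 and Gad2 0.46 ± 0.26 (edgeR adjusted p = 0.9999 for both), where 1 of the WT mock libraries was of the low-striatum pair. For stress in CAA brains Cck had 0.32 ± 0.19 (edgeR adjusted p = 0.696) and Reln 0.41 ± 0.24 (edgeR adjusted p = 0.704).

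Whether stress acted differently in the genotypes was tested by the interaction, the stress difference in CAA minus that in WT. In edgeR 0 of 10 members passed, beside 0% of all genes, and DESeq2 called 0 of 10, beside 0.0233%. Cck alone had an unadjusted p under 0.05, beside 3.46% of all genes. Its interaction was 0.58 ± 0.26 (SE; edgeR adjusted p = 0.995): it averaged 236 CPM in CAA stress and 189 CPM in CAA mock, but 195 CPM in WT stress and 234 CPM in WT mock. Npy had 0.79 ± 0.67 (SE; edgeR adjusted p = 0.995), with 2.18-fold between the CAA stress replicates and 2.29-fold between those of CAA mock. The low-striatum pair held the lowest Cck level, in CAA mock 2, and the highest, in WT mock 1. Without that pair the interaction fell to 0.22 for Cck and to 0.045 for Npy. For Nr2f2 it moved away from 0, to -0.88.

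The other marker lists, read as measures of which tissue or cells each library held, had 0 genes past the threshold in edgeR for genotype or stress. DESeq2 called Otp, a hypothalamic marker, for genotype (DESeq2 adjusted p = 2.2e-05). Higher in CAA were 2 of 10 excitatory cortical markers (median -0.14), 1 of 11 striatal (-0.34), 11 of 11 hypothalamic (0.83), 1 of 8 olfactory bulb (-1.50), 9 of 9 thalamic (0.64), 3 of 3 brainstem (2.36), 5 of 6 cerebellar (1.01), 8 of 10 choroid plexus (0.24), 2 of 10 endothelial (-0.18) and 7 of 8 fibroblast and meningeal markers (0.66). Higher in stress were 6 of 10 excitatory cortical (0.04), 11 of 11 hypothalamic (0.79), 7 of 8 olfactory bulb (1.28), 5 of 9 thalamic (0.03), 0 of 3 brainstem (-0.56), 2 of 6 cerebellar (-0.18), 9 of 10 choroid plexus (1.36), 6 of 10 endothelial (0.02) and 7 of 8 fibroblast and meningeal markers (0.39). These counts are of the markers that passed the filter on low counts. Their part in the members' differences was not tested beyond the values given with each gene.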

How the data were processed

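RNA was extracted from brains with RNeasy columns, per the labels' protocols. The authors deposited raw counts of reads per gene, made with HISAT2 2.0.5, featureCounts 1.5.0-p3 and build mm10 according to the submitters' processing notes, and FPKM values per gene and library. No strand setting, annotation or FPKM formula is given in the sources used here. Among the count table's symbols, 27 had been turned into dates, and the deposited FPKM table's symbols were used.

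Groups were taken from the titles. No pair of libraries was a repeat within counting noise (chi-square over its degrees of freedom, 8.11 to 67.1). The main test used edgeR 4.0.16 under R 4.3.3: filterByExpr (minimum count 10, minimum total 15), TMM, and a robust quasi-likelihood model of the 4 group means over 8 libraries, two-sided, with Benjamini-Hochberg adjustment over 17182 genes and a threshold of 0.05. The steps were tested on simulated data. Alternatives used DESeq2 1.42.0 and limma 3.58.1. The count of each library limits precision, and SE values are of log2 fold changes.

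Members, lists and rules were chosen with earlier results of these data known. In the averaged comparisons all members are named. Elsewhere Nr2f2 and the 2 other members of smallest p are named, and of each interneuron, receptor or GABA list the 2 genes of smallest p; 1 such gene is not reported here, and tissue lists are given by counts and sums. For likeness, genes of at least 5 mean CPM without clone-style symbols were used, and the nearest 3 were found.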

Additional observations from a re-analysis of the deposited data

Results flagged for a closer look

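Within sets of 4 libraries that shared a genotype or a treatment, the gap of the highest or lowest library to its neighbour was divided by the range of the set and held against Dixon's 95% critical value. Chance alone passes it in about 1 in 20 sets. The sets share libraries, and 6 of 40 passed. CAA stress 2 stood above the other CAA libraries for Gad1 (0.959) and for Reln (0.868), and above the other stress libraries for Npy (0.890). WT mock 1 stood above the other WT libraries for Pvalb (0.915) and for Cck (0.871). WT mock 2 stood above the other mock libraries for Gad1 (0.861). No interaction passed the threshold.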

How the results depend on the processing

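The number of members past the threshold was 0 in each comparison. It became 1, Nr2f2, for averaged CAA without a filter on low counts (adjusted p = 8.81e-09), with DESeq2 (adjusted p = 3.05e-05) and after leaving out the low-striatum pair (adjusted p = 0.0303, an alternative chosen after seeing the data, as was the use of male libraries). It also became 1 for CAA under mock without the filter and with DESeq2, and for CAA under stress without the filter. The cause was not tested. With the replicate number as a block the count stayed 0, Nr2f2 had 1.17 (adjusted p = 0.0557) and no call on a member changed. Same-numbered libraries deviated together in some pairs of groups and apart in others (r from -0.27 to 0.17), which gave no sign of pairing by number. Region markers also differed between replicates in all 4 groups, so this check cannot decide whether the numbers pair the samples. Leaving out each library in turn gave 1.02 to 1.34 for Nr2f2 (adjusted p 0.121 to 0.965), and log2(FPKM + 1) gave 0.75. A fit that leaves out a library assumes that the lone library of its group varies like the others.

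Signs turned mostly for values near 0. For averaged CAA the male libraries gave -0.059 for Pvalb and 0.17 for Cck, and the fit without the low-striatum pair gave 0.17 for Cck and 0.065 for Lhx6. In averaged stress, leaving out that pair gave 0.28 for Pvalb, -0.13 for Sst and -0.091 for Lhx6, and male libraries gave 0.0066 for Vip and 0.047 for Nr2f2. For CAA under mock Cck had 0.060 without the pair. Without 1 library, averaged CAA ran from -0.29 to 0.13 for Gad2, -0.35 to 0.44 for Pvalb, -0.21 to 0.39 for Npy, -0.11 to 0.085 for Cck, -0.54 to 0.17 for Lhx6 and -0.12 to 0.32 for Reln. Averaged stress ran from -0.13 to 0.35 for Sst, -0.059 to 0.13 for Cck, -0.20 to 0.12 for Nr2f2 and -0.0013 to 0.23 for Lrp8. For Nr2f2 stress ran from -0.19 to 0.44 in WT and -0.45 to 0.083 in CAA, and for Reln from -0.094 to 0.78 in CAA.

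Over all genes edgeR called 2 for averaged CAA, against 46 with DESeq2, 223 without the filter, 7 in males and 4 without the pair. For averaged stress the counts were 0, 3, 49, 3 and 0, for the interaction 0, 4, 17, 0 and 1, under mock for CAA 2, 15, 82, 9 and 3, under stress 2, 10, 120, 1 and 2, for stress in WT 0, 0, 11, 1 and 1, and for stress in CAA 0, 14, 112, 8 and 1, in the same order of settings. With limma on FPKM the counts for CAA were 1 under mock and 0 under stress, and with only the compared libraries 1 under mock. Without 1 library they ran from 2 to 5 for averaged CAA, 0 to 4 for averaged stress, 0 to 1 for the interaction, 1 to 3 for CAA in mock, 0 to 2 for it in stress and 0 to 2 for stress in WT.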
